A study of Mus musculus with 6 samples.

Results

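Germline and pluripotency genes are used in germ cells or early embryos and are kept silent in body cells. The 36 genes described here form a list drawn up by their known roles. Its rule holds no methylation value, but the list was chosen with earlier results of these data known. All 36 were found among the 22380 protein-coding genes of the GENCODE vM1 annotation of mm9 (NCBIM37). They comprise 9 genes of the piRNA pathway, 10 genes of meiotic chromosomes, 5 germ cell regulators, 6 testis proteins and 6 pluripotency genes. Their DNA methylation was read from MeDIP-seq peaks of 6 samples of mesangial cells, the primary mouse cells that support the capillaries of the kidney glomerulus, of which 3 were controls and 3 received TGF-β1, a cytokine of fibrosis. In MeDIP-seq an antibody pulls down DNA that carries 5-methylcytosine, and sequenced fragments pile up over methylated, CpG-containing stretches. TGF-β1 was given at 10 ng/ml for 72 h, and cells of both groups were grown between passages 3 and 6 in 25.5 mM glucose, a high level, with 20% fetal bovine serum. The study calls the samples of a group biological replicates. What the controls received in place of TGF-β1, and whether each replicate was grown as its own culture, was not given in the sources used here, and p-values measure the spread between these samples. RNA data of the study were not analysed here, so neither the silence of these genes nor the mesangial label was checked against RNA.

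Most CpG sites of a mammalian genome are methylated, while CpG-rich promoters usually stay free of methylation. Germline genes are known as an exception: many have CpG-containing promoters that are methylated around implantation by DNA methyltransferases and remain so in body cells, where the mark takes part in their silencing. Among the factors known to mark such promoters are E2F6 and its partners MGA and MAX, which bind E2F and E-box motifs. The pluripotency factor genes are likewise shut off after implantation, and several of them have CpG-poor promoters.

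The sequences below give the 250 bases before the first protein-coding start of 5 of the genes in mm9, 5′ to 3′ on the gene's strand, with each CpG in capitals. Sycp1, Tex12 and Sycp3 are shown because their promoter peaks were the highest of the set, Dppa3 as the pluripotency gene with a peak in every sample, and Stk31 as a CpG-rich promoter with no peak.
Sycp1, chr3:102740024-102740273, minus strand: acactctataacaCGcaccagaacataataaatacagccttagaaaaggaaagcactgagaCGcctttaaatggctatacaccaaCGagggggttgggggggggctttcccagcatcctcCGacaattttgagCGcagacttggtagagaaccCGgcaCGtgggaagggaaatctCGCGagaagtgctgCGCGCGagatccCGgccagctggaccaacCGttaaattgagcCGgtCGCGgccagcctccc
Tex12, chr9:50369374-50369623, minus strand: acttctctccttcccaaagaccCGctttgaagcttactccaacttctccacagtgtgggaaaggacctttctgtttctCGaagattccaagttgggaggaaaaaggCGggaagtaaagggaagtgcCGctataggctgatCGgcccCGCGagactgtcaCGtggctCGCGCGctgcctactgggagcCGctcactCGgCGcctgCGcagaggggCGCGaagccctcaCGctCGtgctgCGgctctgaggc
Sycp3, chr10:87922064-87922313, plus strand: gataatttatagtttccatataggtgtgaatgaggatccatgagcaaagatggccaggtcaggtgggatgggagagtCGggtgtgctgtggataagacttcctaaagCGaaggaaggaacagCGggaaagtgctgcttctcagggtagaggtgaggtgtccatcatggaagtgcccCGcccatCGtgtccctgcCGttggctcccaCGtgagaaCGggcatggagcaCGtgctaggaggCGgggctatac
Dppa3, chr6:122576178-122576427, plus strand: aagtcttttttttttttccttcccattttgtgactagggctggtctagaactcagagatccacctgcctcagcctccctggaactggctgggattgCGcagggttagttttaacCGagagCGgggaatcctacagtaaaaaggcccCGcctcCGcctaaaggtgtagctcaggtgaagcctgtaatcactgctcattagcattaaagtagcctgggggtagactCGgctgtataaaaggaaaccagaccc
Stk31, chr6:49345353-49345602, plus strand: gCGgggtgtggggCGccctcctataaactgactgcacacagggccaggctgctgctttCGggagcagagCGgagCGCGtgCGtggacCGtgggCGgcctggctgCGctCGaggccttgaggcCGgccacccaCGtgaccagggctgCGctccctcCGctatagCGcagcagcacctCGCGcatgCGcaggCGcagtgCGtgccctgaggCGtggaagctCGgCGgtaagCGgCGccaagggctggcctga
No annotated exon of a protein-coding gene overlaps these stretches. The 250 bases held 17 CpG in Sycp1, 20 in Tex12, 10 in Sycp3, 6 in Dppa3 and 26 in Stk31. Stk31 was picked for display as CpG-rich and without a peak, so its place as the stretch with the most CpG follows from that choice. Of the stretches shown, only that of Sycp3 overlapped a peak in every sample. The peaks called in every sample lay after the first start in Tex12 and Dppa3, and far inside the gene in Sycp1. The E-box letters CACGTG, a palindrome, stood once in Sycp1 (first base 94 bases before the start), once in Tex12 (93 bases), once in Stk31 (120 bases) and at 46 and 25 bases before the start of Sycp3, and were absent from the Dppa3 stretch.

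A promoter peak was defined as a peak whose summit lay within 1 kb of the start of a protein-coding transcript of the gene, and its value was the pileup, which counts the extended reads that cover the summit. Where a gene had more than 1 promoter peak in a sample, the highest pileup was taken. A peak was called in all 6 samples at the promoters of 10 of the 36 genes (27.8%), compared with 5.33% of all protein-coding genes. The 10 were Piwil2, Sycp1, Sycp3, Tex12, Dazl, Stra8, Sohlh2, Tex14, Dpep3 and Dppa3. Another 12 genes had a promoter peak in 1 to 5 samples, and 14 had none. In at least 1 sample a promoter peak was present in 61.1% of the set and in 20.9% of all genes. Since a peak list leaves out what fell below the caller's threshold, a missing peak does not show an unmethylated promoter, and a partly methylated promoter cannot be told apart from one methylated in a part of the cells.

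**Figure D1:**
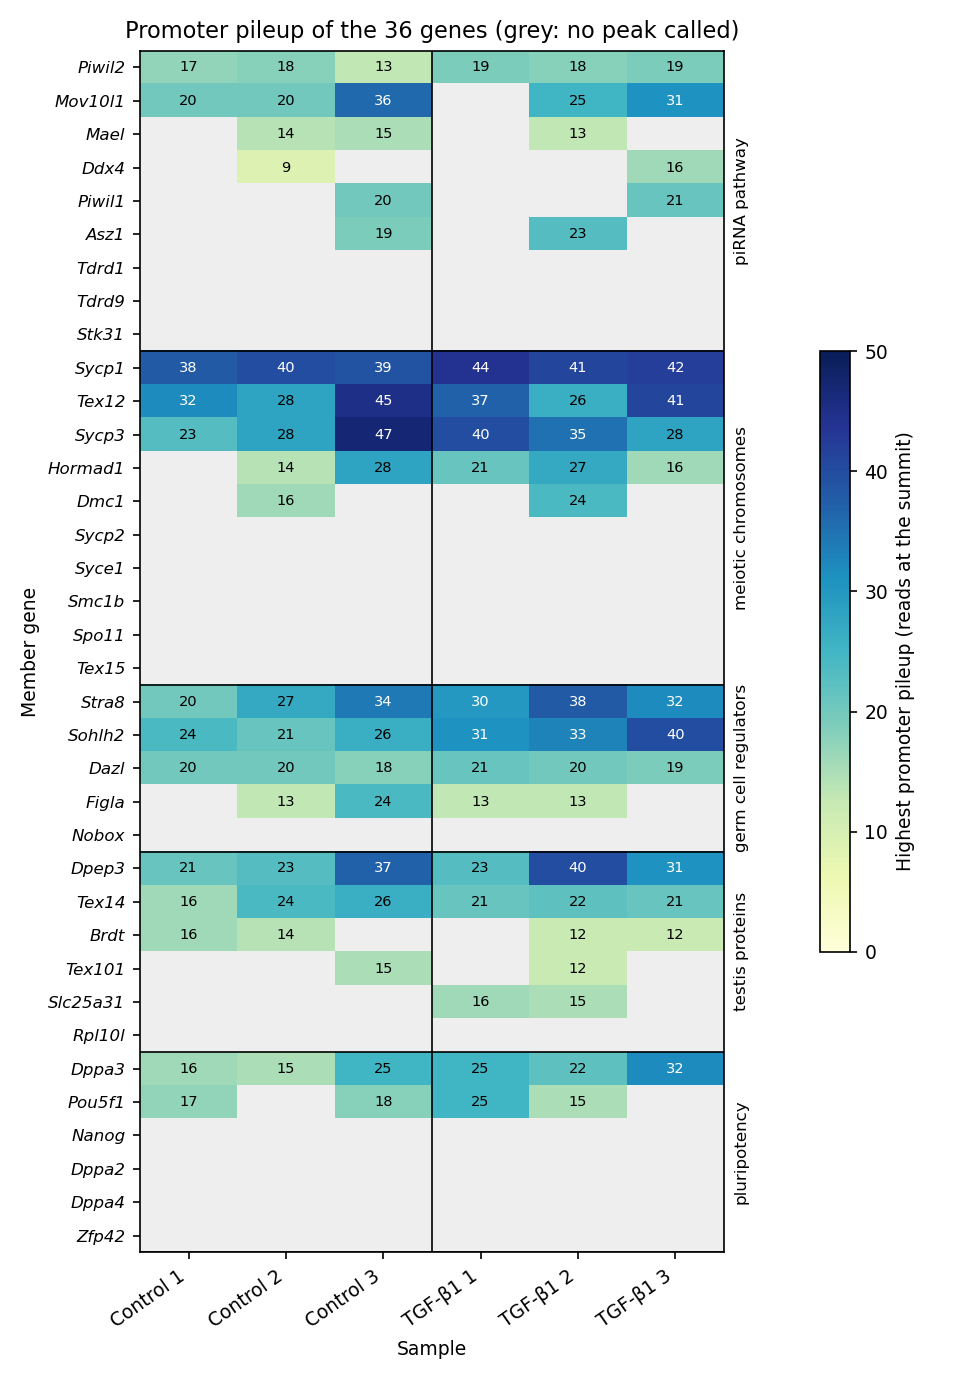
Highest promoter pileup (reads at the summit, colour and number) of the 36 genes (rows, grouped by role) in the 6 samples (columns), with grey where no promoter peak was called. Rows filled in all 6 columns belong to 10 genes, and 14 rows are grey throughout.

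The share of members with a peak was above that of all genes in each class of promoter CpG content. CpG class was taken in 500 bp windows between positions -700 and 200 relative to the first start: high where a window had an observed-to-expected CpG ratio above 0.75 and a GC content above 55%, low where no window exceeded 0.48, and intermediate otherwise. Since the class describes the first start, only peaks within 1 kb of that start were counted by class, which leaves out Sycp1, whose peak lay at a later start, and Stra8, whose summit lay 923 to 970 bp beyond the first start in 5 samples and 1033 bp beyond it in control replicate 3. Among high-CpG promoters, 3 of 10 members had such a peak in all 6 samples (Tex12, Dazl and Tex14), compared with 1.62% of the 7775 high-CpG genes. Among intermediate promoters the count was 4 of 18 (Piwil2, Sycp3, Sohlh2 and Dpep3), compared with 5.6%. Among low-CpG promoters it was 1 of 8 (Dppa3), compared with 2.94%, and Stra8 missed this count through that 1 sample. These are descriptions of small counts.

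Lists of other genes gave a scale for these counts. Of 49 further germline genes found by symbol (Tdrd5 was not matched), 4 had a promoter peak in all 6 samples (8.16%), the highest mean pileups being those of Odf1, a sperm tail protein, at 31.7, Syce2, a central element protein of the synaptonemal complex, at 28.3 and Zp1, an egg coat protein, at 21.7. The further germline genes had a promoter peak in at least 1 sample in 51.0% of cases. Of 17 further pluripotency genes (Tfcp2l1 was not matched), 4 had one in all 6 samples (23.5%), among them Tet1, a 5-methylcytosine oxidase, with a mean pileup of 27.0, Sall4, a zinc finger factor, with 23.8, and Dnmt3l, a cofactor of de novo methyltransferases, with 23.7. Among 25 housekeeping genes, Rpl13a alone had a promoter peak in all 6 samples, with a mean pileup of 19.7. None of 6 mesangial markers (Pdgfrb, Itga8, Acta2, Des, Gata3, Thy1) and none of 6 markers of other kidney and blood cells had one in all 6 samples. In the mesangial markers, a promoter peak was called at Gata3 in 1 sample (pileup 14) and at Thy1 in 2 (pileups of 13 and 10). Of the other markers, Ptprc, the CD45 gene of white blood cells, had a promoter peak in 5 samples, and Pecam1 and Cdh5, both endothelial, in 2 each. A promoter peak in at least 1 sample was called at 41.2% of the further pluripotency genes and 16% of the housekeeping genes. The share was 33.3% of the mesangial markers and 50% of the other kidney and blood cell markers, near that of the further germline genes.

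**Figure D2:**
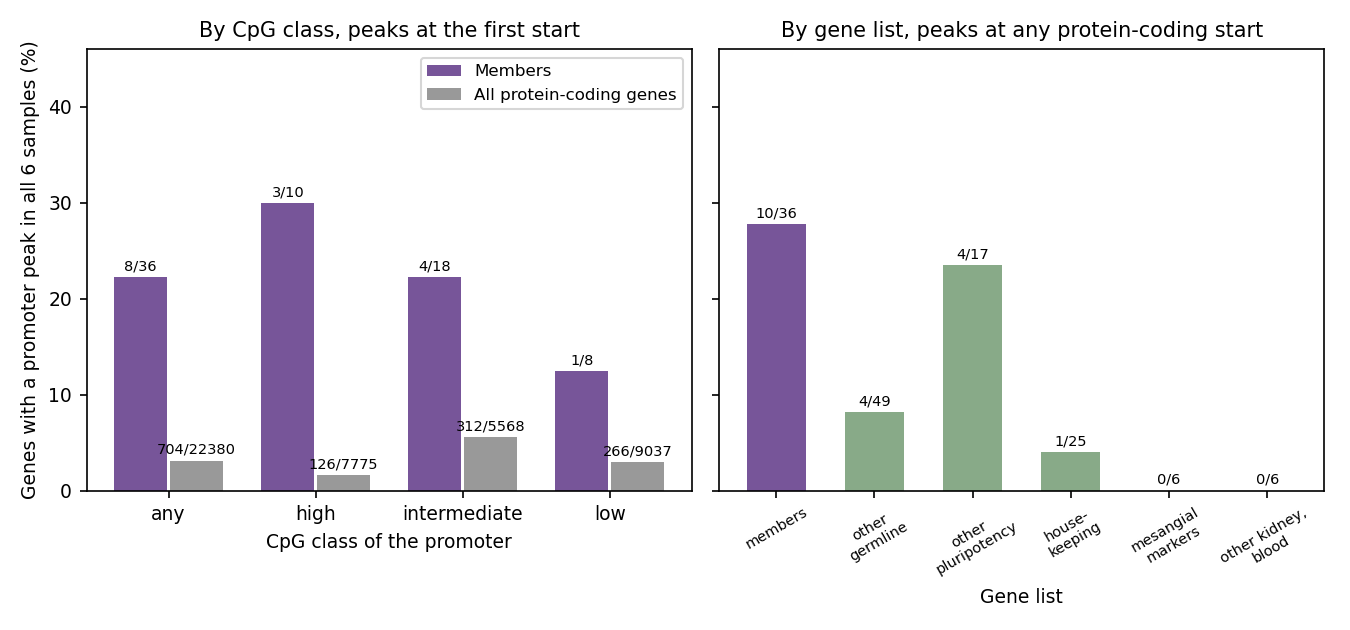
Percent of genes with a promoter peak in all 6 samples, for the members and all protein-coding genes by CpG class, counting peaks at the first start (left), and for the gene lists, counting peaks at any protein-coding start (right), with the counts above the bars. The members' bar is the taller in every class, at 30% against 1.62% among high-CpG promoters, and in the low class it rests on 1 gene.

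The genes of meiotic chromosomes carried the highest promoter pileups. Sycp1, the transverse filament of the synaptonemal complex, had pileups of 38, 40 and 39 in controls and 44, 41 and 42 after TGF-β1. This peak lay in an intron at chr3:102638499-102638882, with summits at -979 to -932 bp from a second, internal start and 101327 to 101374 bp from the first start. At the first start, whose upstream bases are printed above, the only peak was 1 of pileup 16 in TGF-β1 replicate 2. Its value therefore speaks for the inside of the gene. Tex12, a central element protein, had pileups of 32, 28 and 45 in controls and 37, 26 and 41 after TGF-β1, in an intron 599 to 620 bp downstream of its start (chr9:50368536-50369002). The 2 groups overlapped, and the spread within each exceeded the distance between their means. Sycp3, a lateral element protein, had promoter pileups of 23, 28 and 47 in controls and 40, 35 and 28 after TGF-β1. It had 2 promoter regions called in all 6 samples, 1 upstream with summits at -285 to -150 bp (chr10:87921889-87922365, 19 CpG) and 1 in an intron with summits 739 to 941 bp after the start (chr10:87922798-87923467, 21 CpG). The highest Sycp3 pileup came from the upstream region in control replicate 1 and TGF-β1 replicates 1 and 2. In the other samples it came from the intron, so the values compare different sites. The upstream region of Sycp3 covers the whole of the stretch printed above.

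In the same group, Hormad1, a HORMA domain protein of unsynapsed axes, had a promoter peak in 5 samples. Its pileups were 14 and 28 in control replicates 2 and 3 and 21, 27 and 16 in the TGF-β1 samples, and control replicate 1, the sample with the fewest peaks, had none. Dmc1, the meiotic recombinase, had a promoter peak of 16 reads in control replicate 2 and one of 24 in TGF-β1 replicate 2. Sycp2, Syce1, Smc1b, Spo11 and Tex15 had none. Smc1b, the meiotic cohesin subunit, has a high-CpG promoter that lies within 2 kb of a start of Ribc2, and Spo11, Tex15, Sycp2 and Syce1 have intermediate ones.

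Of the germ cell regulators, 3 of 5 had a promoter peak in every sample. Dazl, an RNA-binding protein of germ cells, had closely spaced pileups of 20, 20 and 18 in controls and 21, 20 and 19 after TGF-β1. Its promoter region, chr17:50433146-50433928, lay upstream of the start and held 29 CpG. Stra8, the retinoic acid-induced factor of meiotic entry, had pileups of 20, 27 and 34 in controls and 30, 38 and 32 after TGF-β1, near its later starts and 923 bp or more beyond the first. Control replicate 1 was the lowest Stra8 sample, and the groups overlapped. Sohlh2, a helix-loop-helix factor of early germ cell differentiation, had pileups of 24, 21 and 26 in controls and 31, 33 and 40 after TGF-β1, in an intronic region of 1295 bp with 46 CpG (chr3:54986233-54987527). In raw pileup all its TGF-β1 samples lay above all controls, as in 14.8% of the 1193 genes with a promoter peak in every sample. Every TGF-β1 library was deeper than every control. Figla, the oocyte helix-loop-helix factor, had peaks of 13 and 24 in control replicates 2 and 3 and of 13 and 13 in TGF-β1 replicates 1 and 2. The Figla peak of TGF-β1 replicate 1 lay in an intron, and those of control replicate 3 and TGF-β1 replicate 2 lay upstream. Nobox, the oocyte homeobox factor, has a low-CpG promoter and had none.

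Within the piRNA pathway, which silences transposons in germ cells, Piwil2 (the Piwi protein MILI) was the single gene called in all 6 samples, and its mean pileup, 17.3, was the lowest of the 10. Its pileups were 17, 18 and 13 in controls and 19, 18 and 19 after TGF-β1, in an intron 340 to 560 bp downstream of the start (chr14:70828109-70828839). Mov10l1, the helicase that starts piRNA processing, had 20, 20 and 36 in controls and 25 and 31 in TGF-β1 replicates 2 and 3, and no promoter peak in TGF-β1 replicate 1. Its values in control replicate 3 and TGF-β1 replicate 2 came from an upstream region and the others from an intron. Mael, a factor of transposon silencing, had 14 and 15 in control replicates 2 and 3 and 13 in TGF-β1 replicate 2. The Mael values stand a few reads above the lowest pileups called in any gene, 8 in each control and 9 to 10 in the TGF-β1 samples. Ddx4, an RNA helicase of germ granules, had a pileup of 9 in control replicate 2 and of 16 in TGF-β1 replicate 3. Piwil1, the Piwi protein MIWI, was called at 20 in control replicate 3 and at 21 in TGF-β1 replicate 3. Asz1, a mitochondrial surface protein needed for piRNAs, was called at 19 in control replicate 3 and at 23 in TGF-β1 replicate 2. Tdrd1 and Tdrd9, both Tudor proteins with intermediate promoters, and Stk31, a Tudor and kinase protein with a high-CpG promoter, had no promoter peak.

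Among the testis proteins, Dpep3 and Tex14 were called throughout. Dpep3, a dipeptidase family member that binds Tex101, had pileups of 21, 23 and 37 in controls and 23, 40 and 31 after TGF-β1 in a region, chr8:108502547-108502994, whose summit lay in a coding exon in 3 samples and in an intron in the other 3. Its fold enrichment in TGF-β1 replicate 1 was 4.61, so Dpep3 was no longer called in all 6 samples with a minimum of 5. Tex14, a protein of germ cell bridges, had 16, 24 and 26 in controls and 21, 22 and 21 after TGF-β1 (chr11:87218621-87219383), and a start of Rad51c lies within 2 kb of its own, so this peak may belong to either promoter. Both genes had overlapping groups. Brdt, the testis bromodomain protein, had 16 and 14 in control replicates 1 and 2 and 12 and 12 in TGF-β1 replicates 2 and 3. The Brdt peak of TGF-β1 replicate 3 lay in an intron and the others upstream. Tex101, a germ cell surface glycoprotein, was called at 15 in control replicate 3 and at 12 in TGF-β1 replicate 2. Slc25a31, the testis ADP/ATP carrier, had 16 and 15 in TGF-β1 replicates 1 and 2 and was called in no control. Rpl10l, a retrogene of spermatogenesis with an intermediate promoter, had no peak in the gene or within 2 kb of it.

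The pluripotency genes had a promoter peak in at least 1 sample at 2 of 6 genes, the lowest share of the 5 role groups, and Dppa3 alone had one in all 6. Dppa3, the maternal factor Stella, had pileups of 16, 15 and 25 in controls and 25, 22 and 32 after TGF-β1 in an intronic region of 546 bp with 18 CpG (chr6:122576518-122577063), whose summits lay 3 to 79 bp before the second start and 264 to 340 bp after the first. The fold enrichment of the Dppa3 peak in control replicate 2 was 4.63, and with a minimum of 5 no pluripotency gene of the set had a promoter peak in all 6 samples. Pou5f1, which encodes OCT4, had 17 and 18 in control replicates 1 and 3 and 25 and 15 in TGF-β1 replicates 1 and 2. The Pou5f1 peak (chr17:35646773-35647122) had its summit in a coding exon in 3 samples and in an intron in TGF-β1 replicate 2, 594 to 678 bp beyond an internal start and 3942 to 4026 bp beyond the first. Nanog, Dppa2 and Dppa4, with low-CpG promoters, and Zfp42, the REX1 gene, with an intermediate one, had no promoter peak. Nanog had a single peak of pileup 24, at -1607 bp from its start, in control replicate 3.

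The summits of the members' promoter peaks lay a median of 488 bp from the nearest start, near the 491 bp of all genes. Of 111 promoter peaks over the 6 samples, 18 (16.2%) had their summit within 200 bp of the nearest start, 29 (26.1%) lay farther upstream and 64 (57.7%) farther downstream. For all genes the shares were 22.8%, 35.2% and 41.9% of 18532 peaks, and peaks of the same gene in different samples are not independent. The median GC content of the 28 promoter regions was 51.0%, and the 1 kb around the first start of the same genes had a median of 57.1%. Some of the regions lay at later starts, as in Sycp1 and Pou5f1, so the 2 values describe partly different sites. For scale, the median over all peaks was 47.7% to 48.8% by library, and no value for promoter regions of all genes is given here. The width of the promoter window changed which genes counted. With summits within 500 bp, 4 members (Sycp3, Stra8, Tex14 and Dppa3) and 2.49% of all genes had a promoter peak in all 6 samples, and within 2000 bp it was 15 members and 11.6%. Just inside the 1 kb limit stood the highest promoter peaks of Sycp1 (-979 to -932 bp over the 6 samples) and Sohlh2 (918 to 938 bp), and just outside it regions of Tdrd9 (1111 to 1165 bp), Dmc1 (-1218 to -1100 bp), Tdrd1 (-1250 to -1203 bp) and Zfp42 (1147 to 1519 bp). Counting the first start alone left 8 members, without Sycp1 and Stra8, and 3.15% of all genes.

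**Figure D3:**
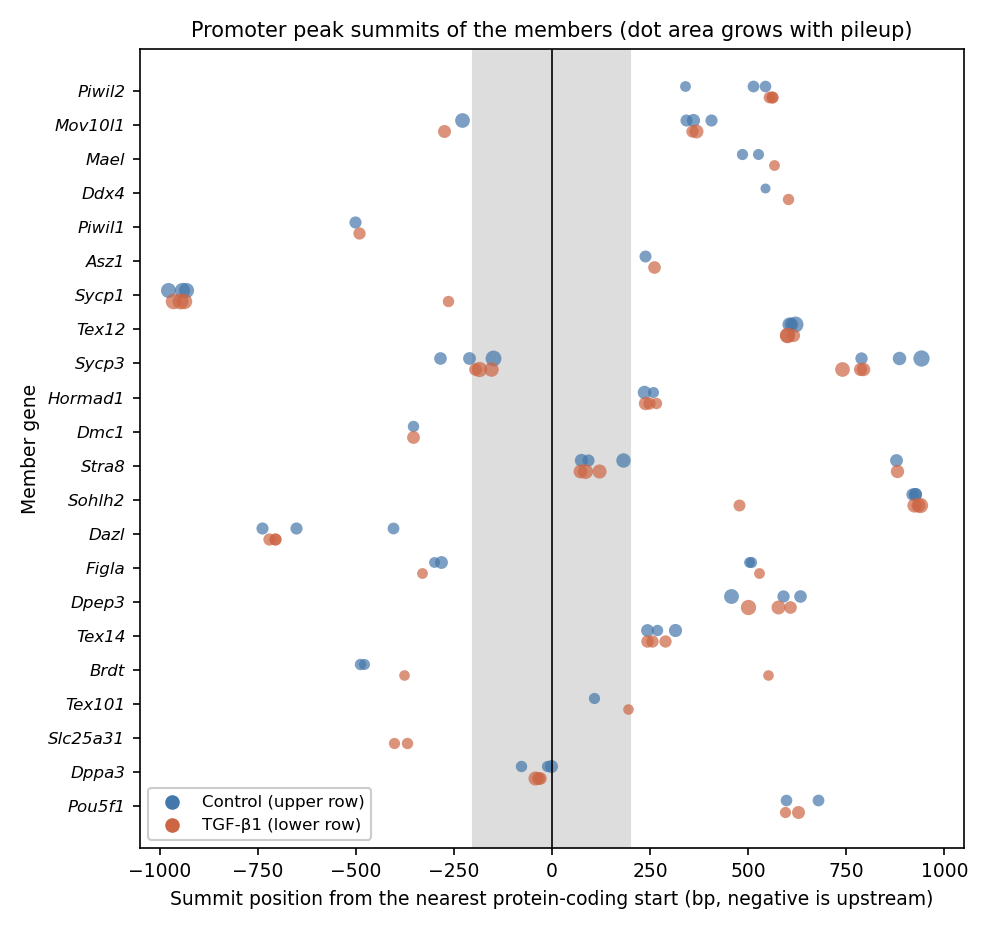
Positions of promoter peak summits (bp from the nearest protein-coding start, negative upstream) for the 22 members with any promoter peak, with control samples in the upper and TGF-β1 samples in the lower row of each gene and dot area growing with pileup. The grey band marks 200 bp either side of the start, which holds 18 of the 111 summits.

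E-box letters occurred in a larger share of these promoters than of all genes, at members with and without a called promoter peak. In the window from 250 bases before to 50 after the first start, CACGTG occurred in 14 of the 36 genes (38.9%) and in 7.77% of all protein-coding genes. Among high-CpG promoters it occurred in 6 of 10 members and 11.4% of genes. It stood in 3 of the 10 genes with a promoter peak in all 6 samples (Sycp1, Sycp3 and Tex12) and in 4 of the 14 with none (Stk31, Tdrd1, Tdrd9 and Tex15). The other members with these letters, Brdt, Ddx4, Hormad1, Mael, Mov10l1, Piwil1 and Slc25a31, had a promoter peak in some samples but not all. The E2F letters TCCCGC, searched on both strands and able to overlap the E-box letters by at most 1 base, occurred in 12 members (33.3%) and in 24.7% of all genes. They stood in 8 of 10 high-CpG members and 47.7% of high-CpG genes, in 4 of the 10 members with a promoter peak in all 6 samples and in 3 of the 14 with none. Among regions called in all 6 samples at these 10 promoters, only the upstream Sycp3 region covered this window, and the Dazl region reached its edge. Those of the other genes, Sycp1, Stra8 and Tex12 among them, lay outside it. A match of letters is a description and not a bound site.

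In the genes and 2 kb either side, peaks of the 6 samples were joined by at least 1 bp of overlap into 107 regions. A peak in every sample was found for 32 of them (29.9%), compared with 24.5% of all 170444 regions. Of the 32, 11 were promoter regions and, by the summit of the highest peak, 16 were other intronic regions, 2 lay in coding exons and 3 lay upstream. At least 1 such region was present in 20 of the 36 genes (55.6%) and in 42.6% of all protein-coding genes, with a median gene length of 19204 bp in the set and 15420 bp in all. Methylated stretches inside genes are common in mammalian genomes. Here, 6 of the 14 genes without a promoter peak had a region in all 6 samples (Tdrd1, Tdrd9, Smc1b, Spo11, Tex15 and Zfp42). No peak at all was called in Sycp2, Syce1, Rpl10l and Dppa2.

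The highest regions outside promoters belonged to Tdrd1, Tdrd9 and Zfp42. A Tdrd1 intron (chr19:56903703-56904209) had pileups of 44, 43 and 55 in controls and 55, 56 and 51 after TGF-β1. A Tdrd9 intron (chr12:113258587-113259232), with 41 CpG, had 26, 42 and 56 in controls and 67, 47 and 55 after TGF-β1. Both sets of values overlapped between the groups. A coding exon of Zfp42 (chr8:44380862-44381904), with 46 CpG, had 20, 39 and 71 in controls and 29, 60 and 26 after TGF-β1. This Zfp42 exon varied widely within both groups, and control replicate 3 and TGF-β1 replicate 2 were its high samples. Beyond the 1 kb limit, Smc1b had an upstream region (chr15:84963820-84964351) with 14, 20 and 35 in controls and 35, 35 and 27 after TGF-β1, and Dmc1 one (chr15:79436445-79437118) with 25, 18 and 32 in controls and 23, 23 and 39 after TGF-β1.

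The number of members called differed more between libraries than between the groups. A promoter peak was called at 13, 17 and 18 members in the controls and at 14, 20 and 15 in the TGF-β1 samples, with means of 16 ± 2.65 and 16.3 ± 3.21 (SD, n = 3 each). Over all protein-coding genes a promoter peak was called at 9.66%, 11.96% and 13.6% in controls and at 13.1%, 13.4% and 12.8% in the TGF-β1 samples. The libraries held 10319496, 9407103 and 11494356 reads in controls and 12748318, 12634300 and 13291419 after TGF-β1, so every TGF-β1 library was deeper than every control. In raw pileups the 2 cannot be told apart. Median GC content of all peaks was 47.7%, 48.6% and 48.8% in controls and 48.3%, 48.5% and 47.9% after TGF-β1, and the 3 libraries with the most members called were those with the highest GC content. The count over all genes did not follow this order: control replicate 2, with the second highest GC content, had 2677 genes with a promoter peak, fewer than TGF-β1 replicates 1 (2933) and 3 (2866). Mael, Asz1, Dmc1 and Tex101 were called in no library other than these 3 (control replicates 2 and 3 and TGF-β1 replicate 2). Other members did not keep to them: Ddx4 and Piwil1 were also called in TGF-β1 replicate 3, and Slc25a31 in TGF-β1 replicate 1. The share of all genes that kept to these libraries was not counted. The part of GC content in these calls was not tested. Without control replicate 1 and TGF-β1 replicate 3, the 2 libraries of lowest GC content, 12 members had a promoter peak in all 4 others, Hormad1 and Figla being added, as did 7.55% of all genes.

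**Figure D4:**
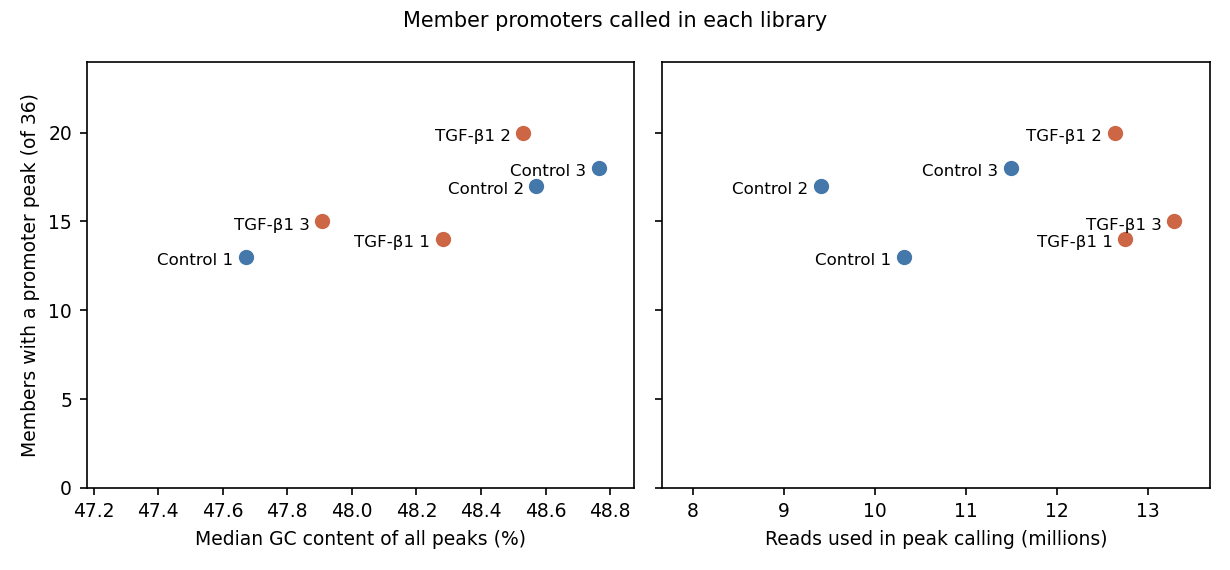
Number of the 36 members with a promoter peak in each library against the median GC content of its peaks (left, %) and its number of reads (right), with controls in blue and TGF-β1 samples in orange. The 3 libraries with 17 to 20 members called have the highest GC content, and the deepest library has 15. Over all genes, the counts per library (2163, 2677 and 3049 in controls, 2933, 2997 and 2866 after TGF-β1) were not in the order of GC content.

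The comparison of TGF-β1 with control asked whether methylation at these genes moved with the treatment. Log2 pileups were centred on each sample's median and tested with limma across all 1193 genes with a promoter peak in all 6 samples and across all 41744 regions called in all 6. No member promoter passed an adjusted p of 0.05 (10 tested), nor did any gene (0%), and no member region passed (32 tested), nor did any region (0%). The paper tested read counts over merged peaks with DESeq and reported differentially methylated genes. That test cannot be repeated from peak lists, which hold no read counts of uncalled regions. The fit here left out every region not called in all 6 samples, so it cannot speak for gained or lost peaks. No member promoter and no member region reached an unadjusted limma p of 0.05, whereas 23 genes were higher (1.93%) and 33 lower (2.77%), and 818 regions were higher (1.96%) and 926 lower (2.22%). This split depended on the scaling: with pileups divided by reads in place of median centring, 13 genes were higher and 70 lower, 212 regions were higher and 2387 lower, and 1 member region was among the lower ones. Member regions also reached an unadjusted limma p of 0.05 when a library was left out, and none passed adjustment. Without control replicate 1, 4 were lower, as were 1236 of all 41744 regions. Without control replicate 3, 2 were higher, as were 1264 of all regions. Without TGF-β1 replicate 1, 2 or 3, 1 was lower each time, as were 698, 858 and 901 of all regions. The median log2 difference, TGF-β1 minus control, was -0.07 over the 10 member promoters and -0.03 over all promoters, and -0.03 over the 32 member regions against -0.0047 over all regions. Members lay on both sides of 0, with 3 promoters higher and 7 lower and with 15 regions higher and 17 lower. The promoter split was 6 higher and 4 lower without TGF-β1 replicate 3, 5 and 5 without control replicate 3, and 2 and 8 without TGF-β1 replicate 2. The region split was 18 higher and 14 lower without control replicate 3, and 12 and 20 without TGF-β1 replicate 2.

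The largest promoter differences stayed small against their error. Sohlh2 had the largest value upward, a log2 difference of 0.30 (SE 0.20, 95% interval -0.11 to 0.71, limma adjusted p = 0.969). Dppa3 had 0.27 (interval -0.19 to 0.73) and Stra8 0.08 (interval -0.34 to 0.50). In the other direction, Tex12 had -0.26 (interval -0.66 to 0.14), Tex14 -0.26 (interval -0.72 to 0.20) and Dazl -0.20 (interval -0.66 to 0.26). On fold enrichment in place of pileup, with all 6 samples, the differences were smaller: -0.09 for Tex12, -0.11 for Tex14, -0.06 for Dazl, 0.18 for Dppa3 and 0.01 for Stra8, with 0.21 for Sohlh2. Several of the pileup values also rested on 1 library. Tex12 was -0.09 without TGF-β1 replicate 2 and -0.16 without control replicate 3, Tex14 was -0.13 without control replicate 2 and -0.43 without control replicate 1, and Dazl ranged from -0.35 (without control replicate 3) to -0.11 (without TGF-β1 replicate 3), with -0.12 without control replicate 1 or 2. Dppa3 was 0.17 without TGF-β1 replicate 3 and 0.18 without control replicate 2. Stra8 changed sign, to -0.07 without control replicate 1 and to -0.04 without TGF-β1 replicate 2. All the intervals from the 6 samples include 0, and together they reach from -0.72 to 0.73.

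Sohlh2 was also the member promoter whose groups separated both in raw pileup and per 1000000 reads. Per 1000000 reads its pileups were 2.33, 2.23 and 2.26 in controls and 2.43, 2.61 and 3.01 after TGF-β1, with means of 2.27 ± 0.0477 and 2.68 ± 0.296 (SD, n = 3 each). In raw pileup, Sycp1 and Sohlh2 had all 3 TGF-β1 samples above all 3 controls, as did 14.8% of the 1193 genes, and no member had them below (0.503% of genes). Per 1000000 reads, Sohlh2 alone remained above, against 2.35% of genes, and no member promoter had all TGF-β1 samples below, against 9.14%. Sycp1, for example, had 3.68, 4.25 and 3.39 per 1000000 in controls and 3.45, 3.24 and 3.16 after TGF-β1, so its order by group depended on the scaling.

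**Figure D5:**
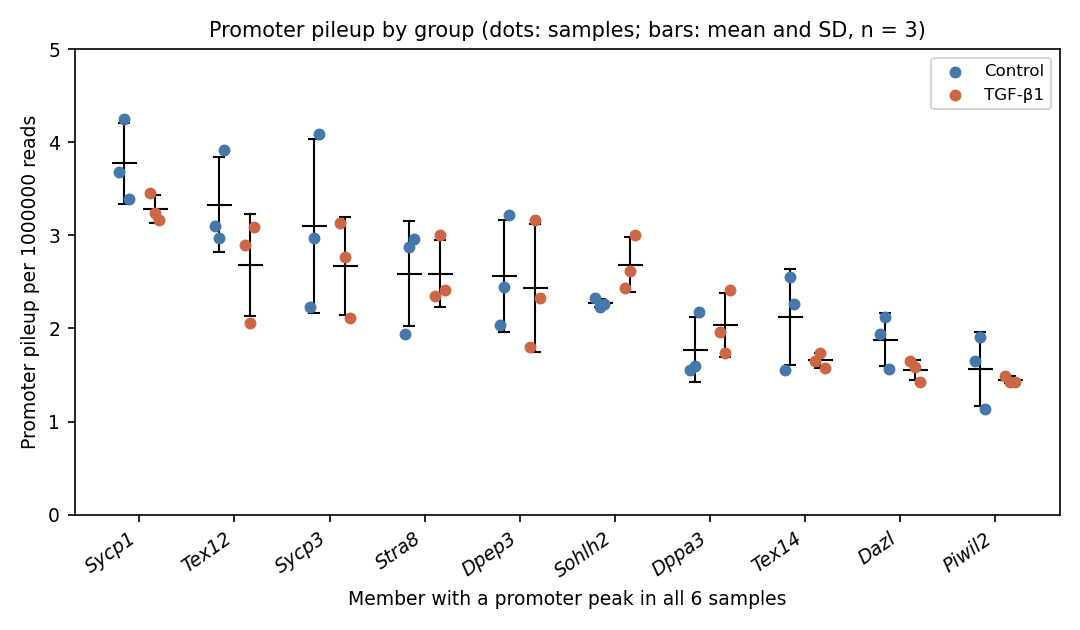
Promoter pileup per 1000000 reads of the 10 members with a promoter peak in all 6 samples, in control (blue) and TGF-β1 (orange) samples, with dots for samples and bars for mean and SD (n = 3). The groups overlap at each gene other than Sohlh2. Of the 1193 genes with a promoter peak in every sample, 2.35% had all TGF-β1 samples above all controls.

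Log2 differences of the member regions ran from -0.44 to 0.36. The Tex14 intron at chr11:87257764-87258250 had pileups of 27, 28 and 36 in controls and 33, 17 and 31 after TGF-β1, with a log2 difference of -0.44 (interval -0.89 to 0.01) and the smallest unadjusted limma p of the member regions, 0.0548 (adjusted p = 0.999). TGF-β1 replicate 2 was its low sample. A Mov10l1 intron (chr15:88866610-88867274) had 21, 20 and 26 in controls and 27, 40 and 32 after TGF-β1, with a log2 difference of 0.33 (interval -0.10 to 0.76). These values did not overlap in raw pileup, as in 4 of the 32 member regions (in Tdrd9, Mov10l1, Sycp1 and Sohlh2) and 14.6% of all regions, with none lower (0.309% of all regions). Per 1000000 reads the Mov10l1 groups overlapped. The upstream region of Smc1b had 0.36 (interval -0.12 to 0.84), and the second upstream region of Dazl (chr17:50433979-50434529) had -0.32 (interval -0.83 to 0.20), with 12, 27 and 22 in controls and 17, 23 and 15 after TGF-β1. On fold enrichment the Dazl region had -0.20. Leaving out 1 library moved these differences widely. Smc1b was 0.10 without control replicate 1 and 0.64 without control replicate 3, and Dazl was -0.62 without control replicate 1, -0.53 without TGF-β1 replicate 2, -0.14 without TGF-β1 replicate 3 and -0.03 without control replicate 2. The Tex14 intron was -0.17 without TGF-β1 replicate 2, and Mov10l1 was 0.15 without that same library. Per 1000000 reads, 1 member region had all TGF-β1 samples above all controls (the Sohlh2 promoter, against 1.97% of all regions) and 2 had them below (in Tdrd9 and Tex14, against 10.4%).

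Presence of a peak separated the groups at 1 region as joined by overlap, and the separation was lost when nearby peaks were merged. A Tdrd9 intron, chr12:113237583-113238148, had pileups of 17, 14 and 19 in the controls and no peak in any TGF-β1 sample, a pattern shared by 0.233% of all regions. No member region was called in all 3 TGF-β1 samples and no control, compared with 0.948% of all regions. In the same Tdrd9 intron, a neighbouring region (chr12:113237095-113237408) had peaks of 18 and 19 in TGF-β1 replicates 2 and 3 and none in the controls. With peaks merged over gaps of up to 200 bp, these 2 formed a single region called in 3 controls and 2 TGF-β1 samples. Both stood at or below the median pileup of the peaks in their libraries, 19 to 22 in controls and 22 to 23 after TGF-β1, and reads below the calling threshold were not analysed here.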

How the data were processed

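MeDIP-seq peak lists of mouse primary mesangial cells, 3 control and 3 TGF-β1 samples, were grouped by their labels. Per the paper's methods, the labels and the file headers, the authors aligned uniquely mapped reads to mm9 with BWA, counted duplicates once, and called peaks in each sample separately with MACS2 2.1.0.20150731 at a q cutoff of 0.01, with no input library and a regional background of 10000 bp. The deposited pileup is a signal not normalized for depth. Fold enrichment, as deposited, is a ratio of pileup to local background. Each deposited p-value or q-value is given as −log10. Without an input, copy number and local bias in coverage cannot be told apart from methylation.

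From these files, peaks were joined by 1 bp of overlap, assigned to genes by summit (gene and 2000 bp either side, GENCODE vM1 on NCBIM37, the assembly of mm9) and to promoters (1000 bp). Calculations used Python 3.11.15 and limma 3.58.1 in R 4.3.3 (lmFit, eBayes with a trend, Benjamini-Hochberg adjustment). The fit was tried on simulated normal values with shifts larger than any member difference given above. That trial does not show whether differences as small as those would be found. Depth was 9407103 to 13291419 reads per sample, and the correlation of log2 pileups between samples was 0.682 to 0.804 over 41744 regions. The genes and lists were chosen with earlier results of these data known. Every member was named, with values per sample for those called, for the 3 promoters and regions of smallest p in each direction and for the highest of each list. Regions outside promoters, the Tdrd9 region called in controls and the per-library contrasts were chosen after their values were seen. Alternatives varied the promoter window, starts, thresholds, scaling, imputation and samples. Genes on 11 peak chromosome names absent from the reference were not analysed.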

Additional observations from a re-analysis of the deposited data

How the results depend on the processing

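A promoter peak in all 6 samples was found for 10 members and for 5.33% of all genes, whose share is given in brackets below. The member count ranged from 10 to 11 when each sample was left out (5.51% to 6.81%). It was 4 with summits within 500 bp (2.49%) and 15 within 2000 bp (11.6%). With fold enrichment of at least 5 it was 8 (4.11%), Dpep3 and Dppa3 being lost. With a −log10 q of at least 5 it was 10 (5.12%). Leaving out both libraries of lowest peak GC, an alternative chosen after seeing the data, gave 12 (7.55%). No member promoter or member region was called by limma under any alternative. At an unadjusted limma p of 0.05, member regions numbered 0 in the fit as reported. On fold enrichment 1 was lower, as were 993 of all 41744 regions. With regions called in at least 3 samples, 1 was higher and 1 lower, as were 2570 and 1427 of all 98681 regions. Member promoters numbered 0 under every alternative. Over all features, the count of called regions was 0, and 1 on fold enrichment. The count of called promoters was 0, and 6 when scaled by reads, and it ranged from 0 to 1 when each sample was left out (1 without control replicate 1). The small log2 difference of the Stra8 promoter, 0.08, ranged from -0.07 (without control replicate 1) to 0.17 when each sample was left out, with -0.04 without TGF-β1 replicate 2. The median over member promoters, -0.07, was -0.14 when scaled by reads, -0.01 on fold enrichment, and -0.12 to 0.02 when each sample was left out, the sign changing without TGF-β1 replicate 3. On fold enrichment the named differences kept their direction, but those of the Tex12, Tex14, Dazl and Stra8 promoters shrank by over 1.5 times to the values given above, as did those of the regions in Tex12 (from -0.23 to -0.08) and Sohlh2 (from 0.33 to 0.21) and the upstream Dazl region (from -0.32 to -0.20). The Stra8 promoter was 0.02 when scaled by reads. In all, 132 checks of named promoters and regions, these among them, kept direction and stayed uncalled, which says nothing of their size. The cause of the changes was not tested. Pileups near 8 to 10 reads are at the limit of what was called.

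Same-numbered samples did not deviate together (correlations of -0.0464, 0.0432 and -0.13), so the numbers were not taken as pairs. With the replicate block, 3 promoters of 1193 and 0 regions were called, none of them members, and the median over member promoters was -0.07.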
